A study of Mus musculus with 6 samples.

Results

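Chemokines are small secreted proteins that bind G protein-coupled receptors on leukocytes and set the direction in which those cells move. In brain tumors they are known for drawing monocytes, T cells and natural killer cells out of the blood, while a few of them, such as Cx3cl1 and Cxcl12, are made steadily by neurons, glia or vessel cells of normal brain. Many of the inducible ligands are switched on by interferon and NF-kappa-B signaling, and clusters of them arose by local gene duplication. Members were the genes whose symbol begins with Ccl, Cxcl, Cx3cl, Xcl, Ccr or Cxcr followed by a digit, and 38 of the 16729 genes in the deposited table matched, 25 ligands and 13 receptors. Of 56 such symbols listed for the mouse family, the other 18 (Ccl1, Ccl19, Ccl20, Ccl21a, Ccl21b, Ccl21c, Ccl24, Ccl26, Ccl27b, Ccr1l1, Ccr3, Cxcl1, Cxcl2, Cxcl3, Cxcl15, Cxcl17, Cxcr1 and Cxcr2) were not analysed here.

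RNA was measured in whole intracranial tumors grown from mG7080 cells, a single gliomasphere culture that came from tumors of mice with deletions that include p53 and Nf1. The same cells were injected into female C57BL/6 hosts that were either wild type (WT) or lacked Esm1 (labelled ESM1-KO, here KO). There were 3 libraries per group, and no other agent is named for these tumors. Esm1 encodes Endocan, a proteoglycan secreted by vascular endothelium. The deletion was in the host, so the injected cells of both groups carried Esm1, and each library mixed tumor RNA with that of host cells. The labels give no day of collection and no age, tumors were taken once they had formed, and the age ranges stated in the study's sources differ. Bulk libraries of this kind cannot tell fewer cells of a type from less RNA per cell. The study also stained tumor sections for microglial, macrophage and T cell proteins. It reported no significant difference between WT and KO tumors, a measure of protein and not of RNA.

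The targeted gene was read first. Counts of Esm1 were 25, 21 and 82 in the WT libraries taken in order, 1 in KO 1 and 4 in KO 3, but 24 in the library labelled KO 2. That library lies with the WT libraries for the gene that defines the groups, so it is called the library labelled KO 2 throughout, and results are given with and without it. Total counts on genes ran from 17632070 to 22241832 per library. Levels are given as CPM, counts scaled to the library total with TMM factors, and 3 counts, the most that a count of 0 allows, correspond to 0.134 to 0.171 CPM. Nothing in the labels says how the tumors of a group relate to each other beyond being separate samples, so p-values measure the spread between these samples.

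Promoter sequences are shown for 4 ligands because Cxcl9, Cxcl10 and Ccl12 lay below all WT libraries in KO 1 and KO 3 and Cxcl12 lay above them. They cover the 250 bases before the RefSeq start site in GRCm38.p6, written 5′ to 3′ on the strand of the gene, with capitals marking a match to an interferon-stimulated response element core (GAAA, any 2 bases, GAAA), a kappa-B pattern (GGGA, any 4 bases, CC) or a gamma-activated site (TTC, any 3 bases, GAA), each searched on both strands. Cxcl10 (chr5:92348890-92349139, minus strand) and Cxcl9 (chr5:92328080-92328329, minus strand) are the interferon-inducible ligands of CXCR3. Ccl12 (chr11:82101595-82101844, plus strand) is a monocyte chemoattractant that binds CCR2, and Cxcl12 (chr6:117168285-117168534, plus strand) is the ligand of CXCR4.
Cxcl10: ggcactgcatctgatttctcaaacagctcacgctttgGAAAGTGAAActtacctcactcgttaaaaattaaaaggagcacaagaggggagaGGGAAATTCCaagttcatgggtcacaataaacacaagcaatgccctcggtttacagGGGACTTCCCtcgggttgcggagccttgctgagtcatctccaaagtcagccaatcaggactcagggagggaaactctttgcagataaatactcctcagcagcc
Cxcl9: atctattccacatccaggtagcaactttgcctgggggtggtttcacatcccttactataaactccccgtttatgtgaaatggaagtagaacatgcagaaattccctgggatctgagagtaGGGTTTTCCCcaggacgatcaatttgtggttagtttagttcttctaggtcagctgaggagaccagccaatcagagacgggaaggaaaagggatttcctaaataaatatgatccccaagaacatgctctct
Ccl12: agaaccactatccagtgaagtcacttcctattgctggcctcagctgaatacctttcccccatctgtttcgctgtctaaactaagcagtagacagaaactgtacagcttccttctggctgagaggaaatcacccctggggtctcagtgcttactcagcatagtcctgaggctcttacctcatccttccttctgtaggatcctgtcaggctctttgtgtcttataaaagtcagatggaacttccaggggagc
Cxcl12: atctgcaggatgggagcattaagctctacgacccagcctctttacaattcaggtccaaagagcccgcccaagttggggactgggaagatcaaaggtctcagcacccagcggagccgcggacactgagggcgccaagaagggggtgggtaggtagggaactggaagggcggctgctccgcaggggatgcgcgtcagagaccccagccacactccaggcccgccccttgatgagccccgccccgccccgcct

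The Cxcl10 window held 1 response element core, 213 to 204 bases before the start, and 2 kappa-B patterns, 159 to 150 and 103 to 94 bases before it. The Cxcl9 window held 1 kappa-B pattern, 130 to 121 bases before the start, and those of Ccl12 and Cxcl12 held none of these letters. Promoter entries matched 26 of the 38 members. The response element core was present in 2 of the 26 (Cxcl10 and Cxcl14) against 3.46% of the 27025 genes with a promoter entry, the kappa-B pattern in 9 of 26 against 19.7%, and the gamma-activated site in 3 of 26 against 8.13%. A match describes letters only, and the windows of the other 12 members were not analysed here. A kappa-B match can overlap others of its kind, since the pattern was searched on both strands.

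With all 6 libraries, 0 of 37 members tested passed an adjusted p under 0.05 in edgeR's quasi-likelihood test in either direction, as did 0% of the 16166 genes tested. At an unadjusted p under 0.05, 0 members were lower and 4 were higher in the KO group (Ccl27a, Cx3cl1, Cxcl12 and Cxcl14), beside 11.9% of all genes lower and 15.2% higher. On the same 6 libraries, DESeq2 called 0 of 33 members with an adjusted p lower (2.48% of all genes) and 3 higher (4.43%), and edgeR's exact test called 0 of 37 lower (0.501%) and 3 higher (0.662%). The median log2 fold change (KO against WT) was -0.89 over the members and -0.02 over all genes tested. Ccr4, the receptor for Ccl17 and Ccl22, was under the count filter and was not tested.

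The KO libraries differed among themselves. Of the 38 members, 29 lay below all 3 WT libraries in KO 1 (43.8% of all genes did) and 6 above them (42.2%). In KO 3 there were 30 below (44.5%) and 5 above (42.5%). The library labelled KO 2 had 5 members below all WT libraries (21.2% of all genes), 15 within their range (54.4%) and 18 above them (24.5%). When the 3 KO libraries were set together against the 3 WT libraries, the groups did not overlap for 4 members that were lower in KO (Ccl3, Ccl9, Ccl25 and Ccr10), where 14.3% of all genes were, and for 3 that were higher (Ccl27a, Cxcl12 and Cxcl14), where 13.3% were.

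**Figure D1:**
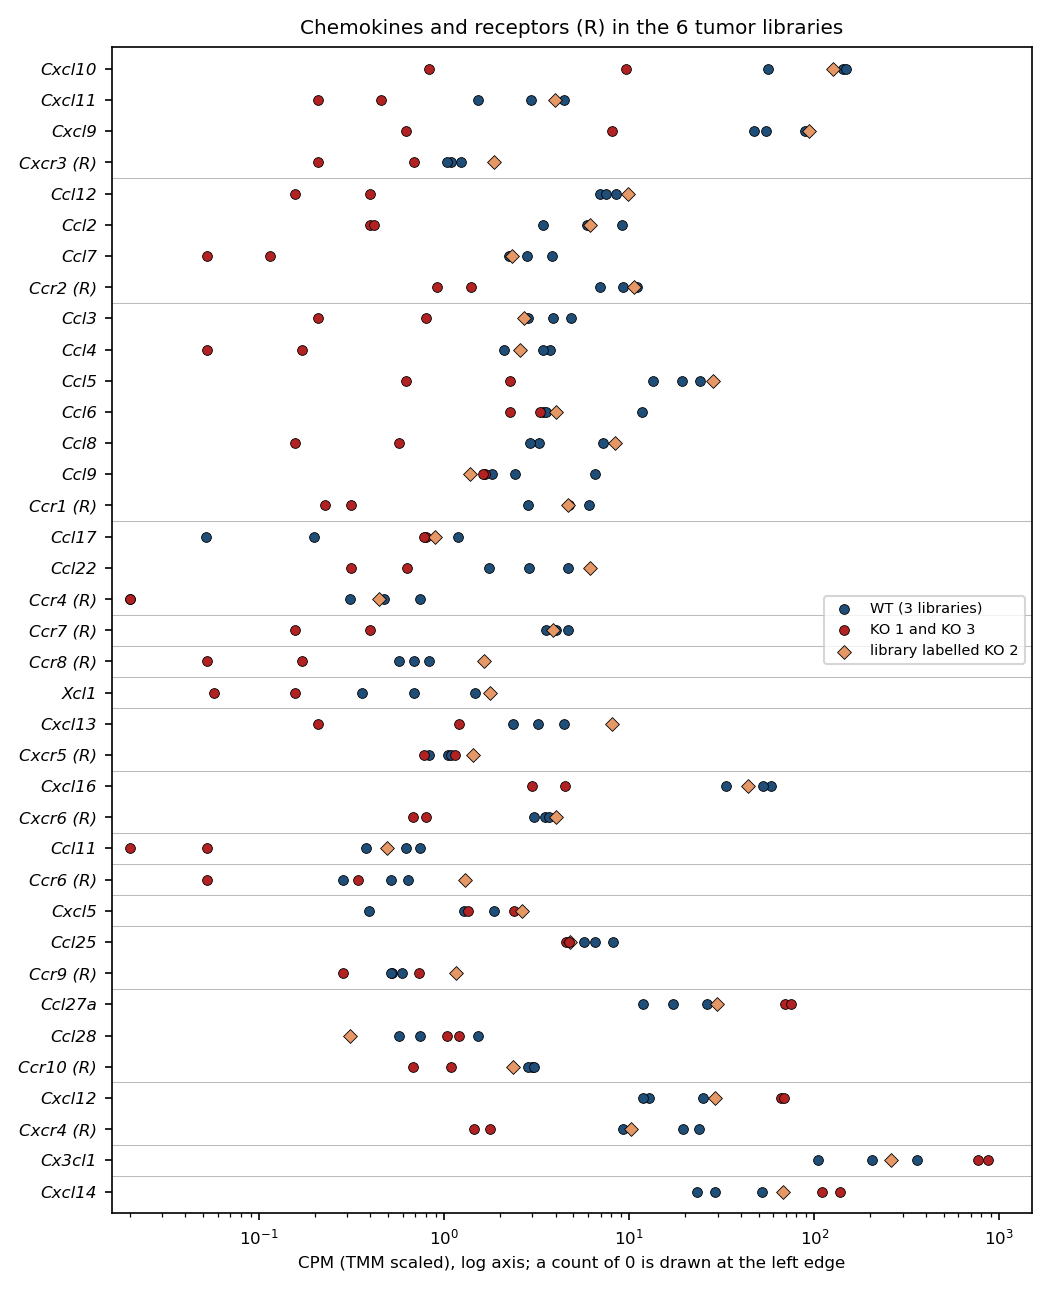
Each point is 1 library's level of a member in CPM (all but 1 of the 38 are drawn) on a log axis, with ligands listed above their receptors (R) and axes separated by lines; points at the left edge are counts of 0 (both KO 1 and KO 3 for Ccr4, KO 1 for Ccl11). KO 1 and KO 3 lie to the left of the WT points for most members, the library labelled KO 2 lies among or to the right of them except for Ccl3, Ccl9, Ccl25, Ccl28 and Ccr10, and Cxcl12, Cxcl14, Ccl27a and Cx3cl1 run the other way.

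Tested on WT 1, WT 2, KO 1 and KO 3, the 4 libraries of the study's own supplementary comparison, 13 of 34 members tested were lower in KO at an adjusted p under 0.05 (edgeR's quasi-likelihood test), beside 13.9% of the 16183 genes tested, and 3 were higher, beside 2.87%. These were 8 ligands (Ccl2, Ccl3, Ccl4, Ccl5, Ccl7, Ccl8, Ccl12 and Cxcl16) and 5 receptors (Ccr1, Ccr2, Ccr7, Cxcr4 and Cxcr6) that were lower, and the ligands Ccl27a, Cxcl12 and Cxcl14 that were higher. All 13 lower members fell by more than 4-fold (6.23% of all genes passed both limits), and 0 of the 3 higher members exceeded 4-fold (0.451%). The median log2 fold change of the members tested was -2.53, against -0.03 over all genes; it was -2.75 over 23 ligands and -2.16 over 11 receptors. The groups of 2 did not overlap for 28 of all 38 members that were lower in KO (41.3% of all genes) and 4 that were higher (39.1%). Ccl11, Ccr4, Ccr6 and Xcl1 were under the filter in these libraries. In the same 4 libraries DESeq2 called 20 members lower (19.5% of all genes) and 4 higher (16.6%), and edgeR's exact test 21 lower (20.2%) and 4 higher (16.2%). The counts rested on few libraries: without KO 3, 4 of 37 members passed as lower (1.54% of all genes) and 0 as higher (0%), and with WT 3 added back 23 of 37 passed as lower (28.3% of all genes) and 4 as higher (24.5%).

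**Figure D2:**
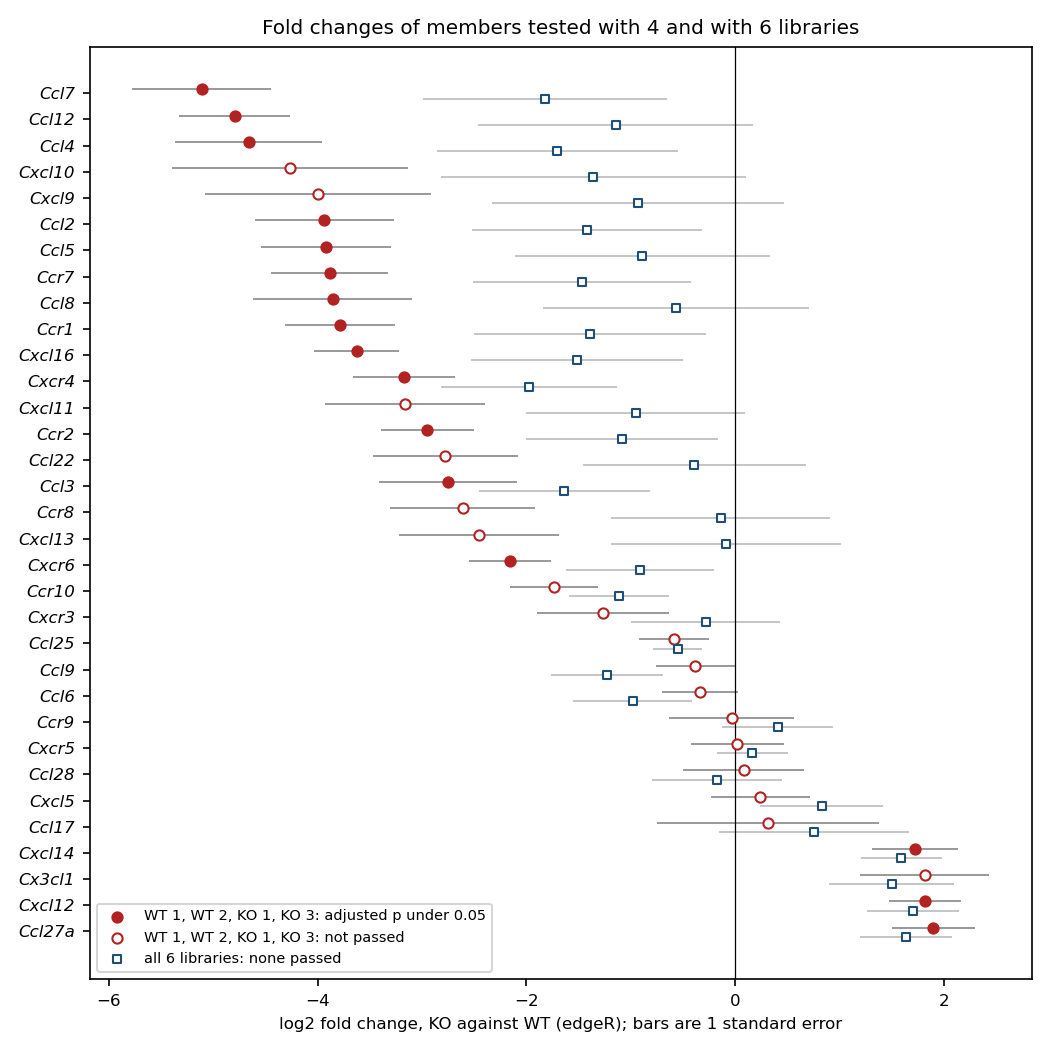
Log2 fold changes (KO against WT, edgeR, bars 1 SE) of members tested in WT 1, WT 2, KO 1 and KO 3 (all but 1 of 34) are drawn as circles, filled where the adjusted p is under 0.05, with the all-6 values as squares. Values from the 4 libraries run from -5.11 for Ccl7 to 1.90 for Ccl27a, and the squares of the lower members lie nearer to 0, with none passing.

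Ligands of CCR2, the receptor that marks inflammatory monocytes, were among the members with the largest differences. Ccl12 stood at 6.99, 8.48 and 7.45 CPM in WT 1, WT 2 and WT 3, at 0.399 in KO 1 and 0.156 in KO 3, and at 9.88 in the library labelled KO 2. The WT 1, WT 2 and WT 3 libraries held 3.43, 9.15 and 5.92 CPM of Ccl2, KO 1 and KO 3 held 0.399 and 0.417, and the library labelled KO 2 held 6.14. The level of Ccl7 was 2.24, 3.82 and 2.81 CPM in WT 1, WT 2 and WT 3, 0.114 and 0.0521 CPM in KO 1 and KO 3, and 2.31 CPM in the library labelled KO 2. KO 1 and KO 3 lay below every WT library for all 3 ligands, and the library labelled KO 2 lay within or above the WT range. Over WT 1, WT 2, KO 1 and KO 3 the log2 fold change was -4.80 ± 0.53 (SE, adjusted p = 0.0343) for Ccl12, -3.94 ± 0.66 (SE, adjusted p = 0.0343) for Ccl2 and -5.11 ± 0.66 (SE, adjusted p = 0.0343) for Ccl7. Ccl7 rests on 3 counts in KO 1 and KO 3 together against 121 in WT 1 and WT 2, a ratio of 36.7 with an exact 95% interval of 12.3 to 180 for counting error only. With all 6 libraries the log2 fold change of Ccl12 was -1.15 ± 1.31 (SE, adjusted p = 0.522), of Ccl2 -1.42 ± 1.10 (SE, adjusted p = 0.358) and of Ccl7 -1.82 ± 1.17 (SE, adjusted p = 0.284).

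The receptor moved with its ligands. For Ccr2, counts scaled to 6.95, 10.96 and 9.28 CPM in WT 1, WT 2 and WT 3, to 0.913 and 1.41 in KO 1 and KO 3, and to 10.6 in the library labelled KO 2. Its log2 fold change was -2.95 ± 0.44 (SE, adjusted p = 0.0343) in the 4 libraries and -1.08 ± 0.92 (SE, adjusted p = 0.394) in all 6. All 4 measured members of the CCR2 axis thus passed as lower in the 4 libraries and none in all 6. Ccl2, Ccl7, Ccl12 and Ccl8 lie with Ccl11 in 1 cluster on chromosome 11 (chr11:82035571-82116799, GRCm38, GENCODE vM21), and the 4 tested genes of that cluster ran from -5.11 to -3.86. Ccl11, the eotaxin gene, had 20 counts in WT 1 and WT 2 together and 1 in KO 1 and KO 3, a ratio of 18.2 (exact 95% interval 2.91 to 754), and was named here after its values were seen.

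Ccl3, Ccl4 and Ccl5 draw T cells and macrophages, and Ccl3 and Ccl5 bind CCR1. Ccl5 stood at 19.3, 24.2 and 13.5 CPM in WT 1, WT 2 and WT 3, at 2.28 in KO 1 and 0.625 in KO 3, and at 28.3 in the library labelled KO 2. In WT 1, WT 2 and WT 3 Ccl4 reached 2.09, 3.72 and 3.40 CPM, whereas KO 1 and KO 3 held 0.171 and 0.0521 CPM and the library labelled KO 2 held 2.58. The level of Ccl3 was 2.86, 3.88 and 4.83 CPM in WT 1, WT 2 and WT 3, 0.799 and 0.208 CPM in KO 1 and KO 3, and 2.72 CPM in the library labelled KO 2. Each of the 3 ligands was again below all WT libraries in KO 1 and KO 3. The log2 fold change in the 4 libraries was -3.92 ± 0.62 (SE, adjusted p = 0.0343) for Ccl5, -4.66 ± 0.70 (SE, adjusted p = 0.0343) for Ccl4 and -2.75 ± 0.66 (SE, adjusted p = 0.0499) for Ccl3, the last just inside the threshold, and it no longer passed without WT 2 or under either other filter on low counts. The library labelled KO 2 was above every WT library for Ccl5 and just below them for Ccl3. With all 6 libraries, values were -0.89 ± 1.22 (SE, adjusted p = 0.591) for Ccl5, -1.70 ± 1.16 (SE, adjusted p = 0.305) for Ccl4 and -1.64 ± 0.82 (SE, adjusted p = 0.208) for Ccl3.

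Ccl8, a further monocyte chemoattractant that in the mouse also binds CCR8, behaved likewise. For Ccl8, counts scaled to 3.24, 7.24 and 2.91 CPM in WT 1, WT 2 and WT 3, to 0.570 and 0.156 in KO 1 and KO 3, and to 8.41 in the library labelled KO 2. Its log2 fold change was -3.86 ± 0.76 (SE, adjusted p = 0.0393) in the 4 libraries and -0.57 ± 1.27 (SE, adjusted p = 0.745) in all 6. The macrophage and microglial ligands Ccl6 and Ccl9 passed in neither set of libraries, and no test compared them with the other ligands. Ccl6 stood at 3.43, 3.57 and 11.7 CPM in WT 1, WT 2 and WT 3, at 2.28 in KO 1 and 3.28 in KO 3, and at 4.01 in the library labelled KO 2. In WT 1, WT 2 and WT 3 Ccl9 reached 2.43, 1.81 and 6.56 CPM, whereas KO 1 and KO 3 held 1.65 and 1.61 CPM and the library labelled KO 2 held 1.38. WT 3 stood apart from the other WT libraries for both, and KO 1 and KO 3 lay close beneath WT 1 and WT 2. Log2 fold changes in the 4 libraries were -0.34 ± 0.36 (SE, adjusted p = 0.486) for Ccl6 and -0.38 ± 0.38 (SE, adjusted p = 0.449) for Ccl9, and with all 6 libraries they were -0.98 ± 0.57 (SE, adjusted p = 0.249) and -1.23 ± 0.53 (SE, adjusted p = 0.188). Both lie in the same cluster as Ccl3, Ccl4 and Ccl5 (chr11:83525778-83664683).

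Ccr1, a receptor of neutrophils and monocytes, was low in the same libraries as its ligands. The level of Ccr1 was 2.86, 4.75 and 6.07 CPM in WT 1, WT 2 and WT 3, 0.228 and 0.312 CPM in KO 1 and KO 3, and 4.67 CPM in the library labelled KO 2. It lay below the WT range in KO 1 and KO 3 and within it in the library labelled KO 2. The log2 fold change was -3.79 ± 0.53 (SE, adjusted p = 0.0343) in the 4 libraries and -1.39 ± 1.11 (SE, adjusted p = 0.368) in all 6. Ccr1, Ccr2, Cxcr6 and Ccr9 lie near each other on chromosome 9, and 3 of these 4 passed as lower in the 4 libraries, the values running from -3.79 to -0.03.

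The CXCR3 ligands Cxcl9 and Cxcl10, which interferon gamma induces and which draw T cells, were low in KO 1 and KO 3 with a wide spread between those libraries, and the axis is described after its values were seen. Cxcl10 stood at 56.3, 142 and 147 CPM in WT 1, WT 2 and WT 3, at 9.64 in KO 1 and 0.833 in KO 3, and at 127 in the library labelled KO 2. The WT 1, WT 2 and WT 3 libraries held 47.2, 89.3 and 54.7 CPM of Cxcl9, KO 1 and KO 3 held 8.04 and 0.625, and the library labelled KO 2 held 93.2. The level of Cxcl11 was 1.52, 4.44 and 2.96 CPM in WT 1, WT 2 and WT 3, 0.456 and 0.208 CPM in KO 1 and KO 3, and 3.96 CPM in the library labelled KO 2. KO 3 was lowest and KO 1 second lowest for all 3 ligands, and KO 1 held more Cxcl9 and Cxcl10 than KO 3. The log2 fold change in the 4 libraries was -4.26 ± 1.13 (SE, adjusted p = 0.0580) for Cxcl10 and -4.00 ± 1.08 (SE, adjusted p = 0.0598) for Cxcl9. That of Cxcl11 was -3.17 ± 0.77 (SE, adjusted p = 0.0509), and none of the 3 passed edgeR's quasi-likelihood test. With all 6 libraries it was -1.36 ± 1.46 (SE, adjusted p = 0.497) for Cxcl10, -0.93 ± 1.40 (SE, adjusted p = 0.623) for Cxcl9 and -0.95 ± 1.05 (SE, adjusted p = 0.506) for Cxcl11. The 3 genes lie side by side (chr5:92321347-92365485). Reads of Cxcl11 are uncertain, since 41.7% of its exonic bases overlap Gm2673 on the other strand and the counting strand is not given in the sources used here.

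Cxcr3, the receptor on activated T cells and natural killer cells, was low in every library. For Cxcr3, counts scaled to 1.09, 1.03 and 1.23 CPM in WT 1, WT 2 and WT 3, to 0.685 and 0.208 in KO 1 and KO 3, and to 1.87 in the library labelled KO 2. The log2 fold change was -1.27 ± 0.63 (SE, adjusted p = 0.168) in the 4 libraries and -0.28 ± 0.71 (SE, adjusted p = 0.770) in all 6. Its WT mean was 1.12 ± 0.102 CPM (SD, n = 3), and KO 3 fell to 4 counts. All 4 members of the CXCR3 axis lay below all 3 WT libraries in both KO 1 and KO 3. So did 28 of the 38 members and 6639 of the 16729 genes. Of the axis, 0 of 4 passed edgeR's quasi-likelihood test in either set of libraries. In the 4 libraries, edgeR's exact test and DESeq2 both called Cxcl9, Cxcl10 and Cxcl11 lower, beside 20.2% and 19.5% of all genes.

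**Figure D3:**
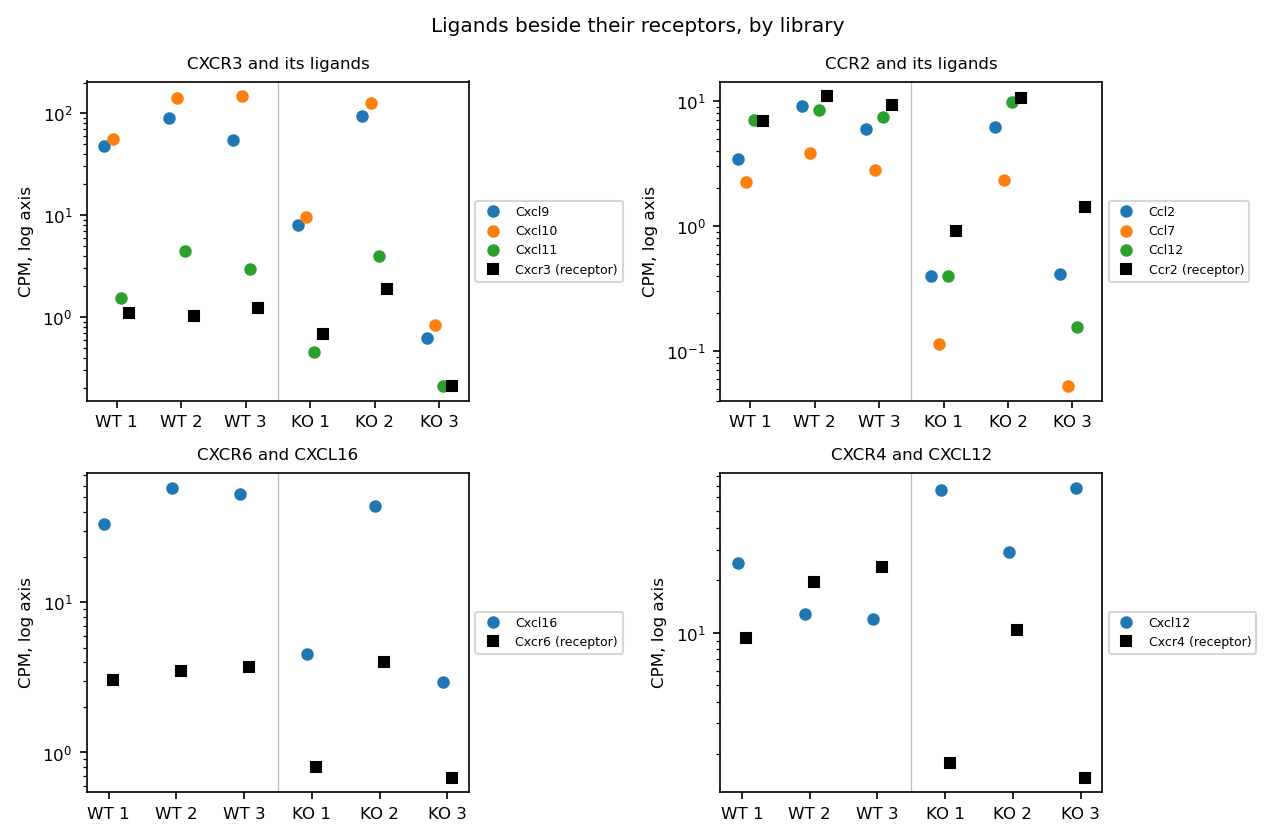
CPM on a log axis by library for the CXCR3, CCR2, CXCR6 and CXCR4 axes, with ligands as circles and the receptor as a black square, shifted sideways to stay apart. In the first 3 panels ligands and receptor are low together in KO 1 and KO 3, whereas in the CXCR4 panel the ligand is high and the receptor low in those libraries.

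Cxcl16, a membrane-bound ligand made by macrophages and dendritic cells, and its receptor Cxcr6, carried by tissue T cells, were low together. Cxcl16 stood at 33.4, 58.2 and 52.6 CPM in WT 1, WT 2 and WT 3, at 4.51 in KO 1 and 2.97 in KO 3, and at 43.7 in the library labelled KO 2. In WT 1, WT 2 and WT 3 Cxcr6 reached 3.05, 3.51 and 3.70 CPM, whereas KO 1 and KO 3 held 0.799 and 0.677 CPM and the library labelled KO 2 held 4.01. Both were below every WT library in KO 1 and KO 3, and the library labelled KO 2 lay within or just above the WT range. Log2 fold changes were -3.63 ± 0.40 (SE, adjusted p = 0.0343) for Cxcl16 and -2.16 ± 0.39 (SE, adjusted p = 0.0358) for Cxcr6 in the 4 libraries, and -1.52 ± 1.02 (SE, adjusted p = 0.301) and -0.91 ± 0.71 (SE, adjusted p = 0.359) in all 6. Cxcl16 shares 18.3% of its exonic bases with Zmynd15 on the opposite strand.

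Ccr7, which guides dendritic and naive T cells to lymphoid tissue, was low in the same libraries. The level of Ccr7 was 3.57, 4.65 and 4.05 CPM in WT 1, WT 2 and WT 3, 0.399 and 0.156 CPM in KO 1 and KO 3, and 3.87 CPM in the library labelled KO 2. Its log2 fold change was -3.88 ± 0.56 (SE, adjusted p = 0.0343) in the 4 libraries and -1.47 ± 1.04 (SE, adjusted p = 0.322) in all 6. Its ligands were not analysed here.

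Cxcl12 is a ligand of endothelium and stroma, and its receptor Cxcr4 is found on leukocytes and glioma cells. For Cxcr4, counts scaled to 9.28, 19.6 and 23.7 CPM in WT 1, WT 2 and WT 3, to 1.77 and 1.46 in KO 1 and KO 3, and to 10.3 in the library labelled KO 2. Cxcl12 stood at 25.1, 12.8 and 11.9 CPM in WT 1, WT 2 and WT 3, at 66.0 in KO 1 and 68.3 in KO 3, and at 29.2 in the library labelled KO 2. The receptor was below all WT libraries in KO 1 and KO 3, and the ligand was above them. In the 4 libraries Cxcr4 changed by -3.17 ± 0.49 (SE, adjusted p = 0.0343) and Cxcl12 by 1.82 ± 0.35 (SE, adjusted p = 0.0376) on the log2 scale; in all 6 the values were -1.98 ± 0.84 (SE, adjusted p = 0.186) and 1.70 ± 0.44 (SE, adjusted p = 0.184). The library labelled KO 2 lay above all WT libraries for Cxcl12 and within their range for Cxcr4.

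Cxcl14, a chemokine of epithelia and interneurons whose receptor is not settled, and Ccl27a, known as a skin ligand of CCR10, were the other members that rose. The WT 1, WT 2 and WT 3 libraries held 51.9, 23.2 and 29.2 CPM of Cxcl14, KO 1 and KO 3 held 138 and 111, and the library labelled KO 2 held 67.4. The level of Ccl27a was 26.5, 11.9 and 17.2 CPM in WT 1, WT 2 and WT 3, 69.2 and 74.9 CPM in KO 1 and KO 3, and 29.9 CPM in the library labelled KO 2. Every KO library exceeded every WT library for both, the library labelled KO 2 by the least. The log2 fold change was 1.72 ± 0.41 (SE, adjusted p = 0.0498) for Cxcl14 and 1.90 ± 0.39 (SE, adjusted p = 0.0418) for Ccl27a in the 4 libraries, and 1.59 ± 0.39 (SE, adjusted p = 0.184) and 1.64 ± 0.44 (SE, adjusted p = 0.184) in all 6. Cxcl14 lies just inside the threshold and no longer passed without KO 1 or under either other filter on low counts. Ccl27a has a near-identical copy, Ccl27b, so its reads are uncertain where the counting could split them.

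The receptor Ccr10 was low where Ccl27a was high. For Ccr10, counts scaled to 3.00, 2.84 and 3.06 CPM in WT 1, WT 2 and WT 3, to 1.08 and 0.677 in KO 1 and KO 3, and to 2.36 in the library labelled KO 2. Ccl28 stood at 1.52, 0.568 and 0.740 CPM in WT 1, WT 2 and WT 3, at 1.20 in KO 1 and 1.04 in KO 3, and at 0.312 in the library labelled KO 2. All 3 KO libraries lay below the WT libraries for the receptor, whose log2 fold change was -1.74 ± 0.42 (SE, adjusted p = 0.0509) in the 4 libraries, just outside the threshold, and -1.12 ± 0.48 (SE, adjusted p = 0.186) in all 6. Ccl28, the mucosal ligand of the same receptor, gave 0.08 ± 0.58 (SE, adjusted p = 0.919) and -0.18 ± 0.62 (SE, adjusted p = 0.839), with KO 1 and KO 3 inside the WT range.

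Cx3cl1, the membrane-tethered ligand that neurons present to microglia, and Ccl25, known from the thymus and gut, complete the 5 members with the smallest p over all 6 libraries. In WT 1, WT 2 and WT 3 Cx3cl1 reached 357, 105 and 206 CPM, whereas KO 1 and KO 3 held 762 and 871 CPM and the library labelled KO 2 held 261. The level of Ccl25 was 5.71, 8.17 and 6.51 CPM in WT 1, WT 2 and WT 3, 4.56 and 4.74 CPM in KO 1 and KO 3, and 4.81 CPM in the library labelled KO 2. For Cx3cl1, KO 1 and KO 3 were above every WT library, the library labelled KO 2 lay inside their range, and all KO libraries were below the WT libraries for Ccl25. Over 6 libraries the log2 fold changes were 1.50 ± 0.60 (SE, adjusted p = 0.184) for Cx3cl1 and -0.55 ± 0.23 (SE, adjusted p = 0.186) for Ccl25. In the 4 libraries they were 1.81 ± 0.62 (SE, adjusted p = 0.0841) and -0.59 ± 0.33 (SE, adjusted p = 0.216). Cx3cr1, the microglial receptor of Cx3cl1 that the symbol rule leaves out, stood at 89.9, 59.6 and 67.5 CPM in WT 1, WT 2 and WT 3, at 91.6 in KO 1 and 90.9 in KO 3, and at 107 in the library labelled KO 2, with a log2 fold change of 0.28 ± 0.24 (SE, adjusted p = 0.393, edgeR) in the 4 libraries.

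The members left were scarce or passed edgeR's quasi-likelihood test in neither set of libraries. They are named here with their values already seen. In the 4 libraries, Ccl22 and Ccl17, ligands of CCR4 on regulatory and helper T cells, differed by -2.78 ± 0.69 and 0.32 ± 1.06 (log2, SE), and Ccr4 had 16 counts in WT 1 and WT 2 and 0 in KO 1 and KO 3, at least 4.85-fold lower when 3 counts are allowed over the KO pair. Ccr8 of regulatory T cells gave -2.61 ± 0.70 and Cxcl13, the B cell attractant, gave -2.46 ± 0.77, with adjusted p = 0.0588 and 0.0732 in edgeR's quasi-likelihood test. In the same 4 libraries edgeR's exact test called Ccl22, Ccr8 and Cxcl13 lower (20.2% of all genes), and DESeq2 called Ccl22 and Cxcl13 lower (19.5%). Cxcr5, the receptor of Cxcl13, with a WT mean of 0.986 ± 0.139 CPM (SD, n = 3), gave 0.02 ± 0.44, Ccr9 gave -0.03 ± 0.60 and Cxcl5, a neutrophil attractant, 0.24 ± 0.47. Xcl1, a ligand that T and natural killer cells secrete, ran from 0.362 to 1.48 CPM in the WT libraries, 0.057 in KO 1, 0.156 in KO 3 and 1.78 in the library labelled KO 2. Its receptor Xcr1, a marker of cross-presenting dendritic cells, had 21, 27 and 25 counts in the WT libraries, 46 in the library labelled KO 2 and 0 in both KO 1 and KO 3. Ccr6 stayed at or below 1.29 CPM in every library.

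Compared per length (CPM per kb of exon), the WT libraries were led by Cx3cl1 at 56.6 ± 32.2 (SD, n = 3), Cxcl10 at 51.2 ± 22.7, Cxcl9 at 21.1 ± 7.44, Ccl5 at 19.8 ± 5.56 and Cxcl14 at 19.0 ± 8.29, and Ccr9 was lowest at 0.053. Cx3cl1 and Cxcl10 did not differ beyond their spread, nor did Cxcl9, Ccl5 and Cxcl14. The most abundant receptor was Cxcr4 at 9.70 ± 4.11. In KO 1 and KO 3 the order changed: the mean level of Cx3cl1 was 208 CPM per kb and of Cxcl14 68.1, followed by Ccl27a at 30.3 and Cxcl12 at 8.21, whereas Cxcl10 averaged 2.33 and Cxcl9 1.44. Averaged over all 6 libraries 25 of 38 members reached 1 CPM per kb, and 28 reached 1 in the deposited FPKM values. The order also differed between these measures. Over all 6 libraries Ccl27a averaged 16.1 CPM per kb and Cxcl14 38.4, but 62.7 and 36.7 in FPKM. Ccr4 at 0.125 lay below Ccr9 at 0.146 in FPKM.

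Other genes of chemokine signaling were read from lists. Among chemokine receptors, decoys and partners outside the symbol rule, 3 of 9 tested were lower in the 4 libraries (13.9% of all genes) and 1 was higher (2.87%), the median being -0.29 on the log2 scale. Ccrl2, which presents chemerin, changed by -2.03 ± 0.43 (SE, adjusted p = 0.0431, edgeR), and Cmklr1, the chemerin receptor, by -1.39 ± 0.31 (adjusted p = 0.0453). The third was Xcr1. Ackr1, the decoy receptor of venules and red blood cells, rose by 1.54 ± 0.30 (adjusted p = 0.0387). Among 27 genes that carry the signal from these receptors, 10 were lower and 0 higher in the 4 libraries, beside the same shares of all genes, with a median of -0.76, among them Dock2, which drives lymphocyte motility, at -1.51 ± 0.22 (SE). Of 10 tested genes of interferon and NF-kappa-B induction, 7 were lower and 0 higher, again beside 13.9% and 2.87%, among them Irf1, Irf7, Tnf and Il1b, with a median of -3.25. No gene of these 3 lists passed in edgeR's quasi-likelihood test with all 6 libraries, where 0% of all genes did.

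Irf1, an interferon-induced transcription factor, had 126, 197 and 178 CPM in the WT libraries, 21.6 in KO 1, 10.05 in KO 3, and 233 in the library labelled KO 2. It lay below all WT libraries in KO 1 and KO 3, lower in KO 3, as for Cxcl9 and Cxcl10. The interferon gamma gene Ifng had 30, 30 and 27 counts in the WT libraries, 6 in KO 1, 0 in KO 3 and 48 in the library labelled KO 2.

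Markers of several leukocyte types were low in KO 1 and KO 3, the libraries in which most members were low. In summed CPM, the 13 macrophage and monocyte markers ran from 284 to 449 in the WT libraries and stood at 73.7 in KO 1, 49.1 in KO 3 and 412 in the library labelled KO 2; 11 of 13 were below all WT libraries in both KO 1 and KO 3, and Chil3 had 0 counts in KO 3. The 7 measured natural killer markers ran from 13.1 to 19.1 in WT and stood at 1.25 in KO 1, 6.30 in KO 3 and 17.3 in the library labelled KO 2, with Klre1 at 0 in KO 1 and KO 3 and Prf1 at 0 in KO 3. Most of the sum in KO 3 was Eomes, a transcription factor, at 5.26 CPM against 1.13 to 1.62 in WT, and the other 6 markers were below all WT libraries in both KO 1 and KO 3. The 13 T cell markers went the other way in sum, at 147 to 337 CPM in WT, 556 in KO 1, 638 in KO 3 and 316 in the library labelled KO 2. Most of that sum was Thy1, which neurons also carry, at 83.7 to 276 CPM in WT, 508 in KO 1 and 612 in KO 3. Of the 13, 10 were below all WT libraries in both KO 1 and KO 3, Thy1 and Trat1 were above them, and Cd4 was above them in KO 1 and below them in KO 3; 8 of 12 tested passed as lower in the 4 libraries and 0 as higher. Cd3e, a subunit of the T cell receptor complex, stood at 2.33 to 3.14 CPM in WT, 0.342 in KO 1, 0.208 in KO 3 and 4.72 in the library labelled KO 2. The 9 microglial markers, by contrast, summed to 433 to 521 in WT, 452 in KO 1, 392 in KO 3 and 562 in the library labelled KO 2, with 4 of them below and 4 above all WT libraries in both KO 1 and KO 3, and 1 passed as lower in the 4 libraries. The 9 dendritic cell markers were mixed. Of these, 5 were below and 2 above all WT libraries in both KO 1 and KO 3. In the 4 libraries 2 passed as lower and 0 as higher. Their sum was 249 to 267 CPM in WT, 265 in KO 1, 305 in KO 3 and 246 in the library labelled KO 2. Most of it was Fscn1. Of 4 measured neutrophil markers, 1 was below and 0 above all WT libraries in both KO 1 and KO 3. Of the 3 tested, 0 passed. The part of these lists in the levels of the members was not tested.

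Neuronal markers were high in KO 1 and KO 3, as were the members that rose, but none of them passed. The 11 neuronal markers summed to 1753 to 5300 CPM in the WT libraries, 12040 in KO 1, 14467 in KO 3 and 4497 in the library labelled KO 2, and 10 of 11 were above all WT libraries in both KO 1 and KO 3. In edgeR's quasi-likelihood test on the 4 libraries 0 of 11 passed as higher (2.87% of all genes), and 9 had an unadjusted p under 0.05. The 7 myelinating oligodendrocyte markers summed to 1289 to 3252 CPM in WT, 7329 in KO 1, 3774 in KO 3 and 3124 in the library labelled KO 2, with 5 of 7 above all WT libraries in both KO 1 and KO 3 and 0 passing, adjusted or not. The 6 astrocyte markers were mixed: Gja1 passed as higher at 1.42 ± 0.33 (SE, adjusted p = 0.0476, edgeR), Gfap passed as lower at -2.26 ± 0.32 (SE, adjusted p = 0.0343), and Aqp4 and Slc1a3 gave 0.11 and -0.10. The 10 proliferation genes summed to 1194 to 2124 CPM in WT, 138 in KO 1, 53.5 in KO 3 and 1333 in the library labelled KO 2. The 8 glioma progenitor markers summed to 1047 to 1382 CPM in WT, 389 in KO 1, 277 in KO 3 and 1233 in the library labelled KO 2. Of these 8, 7 passed as lower in the 4 libraries (13.9% of all genes) and 0 as higher (2.87%). WT 1, which had the most neuronal RNA of the WT libraries, also had the most Cx3cl1, Cxcl12, Cxcl14 and Ccl27a among them. The part of these markers in the levels of the members that rose was not tested.

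**Figure D4:**
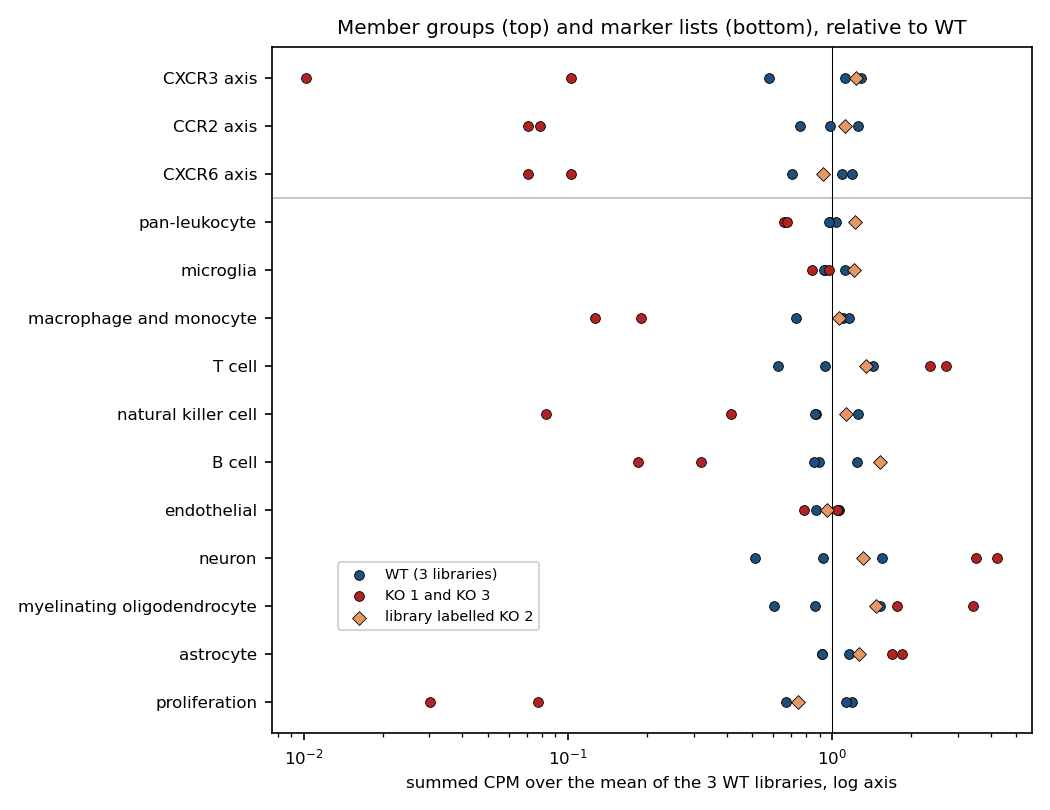
Summed CPM of 3 chemokine axes (above the line) and of 11 marker lists, each over the mean of the 3 WT libraries, on a log axis. KO 1 and KO 3 lie left of all WT libraries for the CXCR3, CCR2 and CXCR6 axes. They also do so for the macrophage and monocyte, natural killer (KO 3 mostly through Eomes, nearer to 1), B cell, proliferation and, nearer to 1, pan-leukocyte lists. For the microglial and endothelial lists, KO 1 lies within the WT range and KO 3 left of it. KO 1 and KO 3 lie right of all WT libraries for the T cell list (mostly Thy1), neurons, oligodendrocytes and astrocytes.

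When libraries were scaled to the 32 genes of the pan-leukocyte, microglial and macrophage lists in place of TMM, 17 of 34 members passed as lower (9.07% of all genes tested) and 4 as higher (45.2%) in the 4 libraries. These genes held 27642 to 28527 counts in the WT libraries, 15473 in KO 1, 15510 in KO 3 and 36765 in the library labelled KO 2. This scaling moved the median of all genes to 0.69 on the log2 scale, and the median of the members to -1.85. Per 1000 counts of the leukocyte lists, those of Ccl12 numbered 5.24, 5.93 and 5.29 in the WT libraries, 0.452 in KO 1, 0.193 in KO 3 and 6.04 in the library labelled KO 2. KO 1 and KO 3 remained below every WT library on that scale. The 32 genes mix cell types that differed. With TMM in the 4 libraries, the median log2 fold change was 0.10 over the 9 microglial genes and -2.85 over the 13 macrophage and monocyte genes. The scale therefore cannot separate fewer monocytes from less chemokine RNA per monocyte. Cxcl9, Cxcl10, Cxcl11 and Ccl22 passed as lower on this scale, and Cx3cl1 as higher, whereas none of them passed the quasi-likelihood test with TMM. With TMM in the same 4 libraries, edgeR's exact test called each of them in the same direction, beside 20.2% of all genes lower and 16.2% higher. The directions of Ccl6, Ccl9, Ccl25 and Ccr9 turned from below to above 0, none of them passing.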

How the data were processed

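RNA-seq was made from 6 tumors, 3 per host genotype. Raw counts of reads per gene were deposited, as whole numbers without normalization, beside FPKM that the authors computed per gene and library and their own fold changes and p-values, which were not used. Per the labels the build was mm10, base calling used CASAVA 1.8.2 and edgeR was named; the methods name another library kit and human hg38, and counting of uniquely mapped reads. No gene of the table is counted in fewer than 4 libraries or peaks under 5 counts, so scarcer genes cannot be assessed.

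Differences between groups were tested with edgeR 4.0.16 under R 4.3.3 (filterByExpr with a minimum count of 10 and a minimum total of 15, TMM, quasi-likelihood F test, Benjamini-Hochberg over all genes tested). The SE is the log2 fold change over the square root of F. Members, lists and the 4-library comparison were chosen with earlier results of these data known. Values per library are given for members that passed in either fit, their axis partners and the 5 with the smallest p over all 6 libraries; the CXCR3 axis and the scarce members were added after their values were seen. A member and some genes of the lists are not reported here by name. Intervals and floors cover counting error only, at 95%. Lengths came from GENCODE vM21. Alternatives were RLE, upper quartile and leukocyte-list scaling, 2 other count filters, DESeq2 1.42.0, limma-voom (limma 3.58.1), edgeR's exact test, a 4-fold limit, a replicate block and each library left out. Simulated data had the same spread for every gene and no library unlike the others of its group. On these, the 4-library fit recovered 28% of simulated 2-fold changes and 100% of 8-fold changes, and the 6-library fit 67% and 100%. False calls numbered 7 in the 4-library fit and 6 in the 6-library fit. The real libraries differ in both respects, so these shares do not carry over to them.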

Additional observations from a re-analysis of the deposited data

How the results depend on the processing

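With all 6 libraries, counts of members called stayed at 0 lower and 0 higher under the other scalings, filters, limma-voom and the 4-fold limit; DESeq2 and edgeR's exact test called 3 higher. Leaving out 1 library gave 0 to 23 lower, 0 to 4 higher and a median of -2.59 to -0.36, the 23, 4 and -2.59 arising without the library labelled KO 2. Reducing to WT 1, WT 2, KO 1 and KO 3 gave 13 lower, 3 higher and a median of -2.53. Within those 4 libraries, DESeq2 called 20 lower (19.5% of all genes) and the exact test 21 (20.2%), against 13 (13.9%) in the quasi-likelihood test, the 4-fold limit left 0 higher (from 3), and leukocyte-list scaling gave a median of -1.85. Leaving out 1 of the 4 gave 4 to 18 lower, 0 to 5 higher and a median of -2.95 to -2.03, with the lone library of an arm assumed to vary like the others; the 4 lower and 0 higher came without KO 3, and the 5 higher without WT 1. Without KO 1, Ccl2, Ccr1, Ccr2, Cxcl14 and Cxcr6 no longer passed.

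Direction turned for members that passed the quasi-likelihood test with TMM in neither set of libraries. In the 4 libraries these were Ccr9 (0.0024 with RLE, 0.69 with leukocyte-list scaling), Cxcr5 (-0.0102 with upper quartile scaling), and Ccl25, Ccl6 and Ccl9 (0.14, 0.39 and 0.33 with leukocyte-list scaling). With 1 library left out, Ccr9 ran from -0.85 to 0.49, Cxcr5 from -0.26 to 0.28, Cxcl5 from -0.21 to 0.61, Ccl17 from -0.59 to 3.76 and Ccl28 from -0.45 to 0.95. In the 6-library fit, Ccl28 turned to 0.40 with leukocyte-list scaling and to 0.081 in the 4 libraries and ran from -0.50 to 0.33 with 1 left out, and Ccr6 turned to -0.49 with limma-voom and -0.18 with the replicate block. Ccr9 turned to -0.0346 in the 4 libraries. Leaving out 1 of the 6, the fold change ran from -1.33 to 0.18 for Cxcr3, -1.29 to 0.76 for Ccr6, -0.083 to 0.77 for Ccr9, -0.0388 to 0.36 for Cxcr5, -2.71 to 0.12 for Ccl22, -2.25 to 0.46 for Cxcl13, -2.59 to 0.39 for Ccr8 and -2.89 to 0.34 for Xcl1, and in each of these 8 the lowest value came without the library labelled KO 2. The cause was not tested.

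The labels do not say whether replicate numbers pair the libraries. Same-numbered WT and KO libraries had deviations correlated at 0.553, 0.596 and -0.21, and different-numbered ones at -0.644 to 0.542. Deviations from the mean of so few libraries depend on each other, so these values cannot settle whether the numbers pair them. The fit with the replicate number as a block called 0 lower and 0 higher, with a median of -1.28.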
